A study of Mus musculus with 6 samples.

Results

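The odorant receptors of mouse chromosomes 1 and 6 described here were the transcript clusters of the array that the platform annotation assigns to a single gene numbered within Olfr414 to Olfr461, Olfr1403 to Olfr1416 or Olfr211 to Olfr218, without pseudogene symbols. The rule found 33 clusters of 32 genes, out of 712 odorant receptor genes with a cluster of their own and 16661 clusters tested. Olfr446 had 2 clusters and is given by the brighter one. A further 10 clusters named several genes, at least 1 of them with a number in these ranges, and were tested but do not count as members.

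RNA came from the sensory lining of the nose, the olfactory epithelium, of ED18.5 mouse embryos, an age close to birth. One group was Emx2 homozygous wildtype and the other Emx2 knockout, where Emx2 encodes a homeodomain transcription factor. The sources used here give neither the knockout allele nor the strain, and name no other allele or treatment for either group. There were 3 arrays per genotype, each of RNA pooled from 3 animals, so that a value is a mean over animals and p-values measure the spread between pools. Values are log2 RMA signals of an exon array, 1 value per cluster and array, and differences are the knockout arrays minus the wildtype arrays, so that -1 is a halving.

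Odorant receptors are G protein-coupled receptors in the cilia of olfactory sensory neurons, and a mature neuron transcribes a single receptor gene from a single allele. The bulk signal of a receptor therefore depends both on how many neurons have chosen it and on how much RNA each of them makes, and these cannot be told apart here. Receptor genes lie in runs of neighbours that arose by duplication, and members of a family, numbered in the MOR nomenclature by sequence relation, often sit side by side. Homeodomain proteins bind DNA at sites with a TAAT core, and sites of this kind and sites for Ebf proteins are known features of receptor promoters.

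The array medians lay between 7.64 and 7.73, and their number limits the precision. Emx2 itself was at 8.44 ± 0.13 (SD, n = 3) for wildtype arrays against 8.37 ± 0.03 (SD, n = 3) for those labelled knockout, a difference of -0.07 (SE 0.09; limma, adjusted p = 0.894). Its cluster is 1 value over all probes, and the sources used here do not say whether they lie in the deleted part, so the genotype rests on the labels. Pools differed in sex: Y-linked signal, averaged over 2 genes, was high (6.96 to 8.08) for wildtype 2, knockout 2 and knockout 3, called the high-Y arrays, and low (3.62 to 3.83) for the low-Y arrays, wildtype 1, wildtype 3 and knockout 1. Knockout 1 is thus the only knockout array among the low-Y arrays, and wildtype 2 the only wildtype array among the high-Y arrays. Differences within the low-Y or high-Y arrays rest on that single pool and cannot separate sex from it. The defining markers of olfactory neurons were present, with Omp at 11.82 to 12.51 in wildtype and 11.22 to 11.62 in the knockout-labelled arrays.

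Entrez identifiers placed all 32 genes in a GRCm38.p6 gene table, 19 on chromosome 1 and 13 on chromosome 6. Taking receptor genes within 1 Mb of the next as a run, they fell in 5 runs. On chromosome 1, 5 receptors lay from Olfr1414 to Olfr1410 and 14 from Olfr1408 to Olfr414. On chromosome 6, Olfr460 was the only one of the 32 in its run, 9 receptors lay from Olfr459 to Olfr434, and 3 from Olfr211 to Olfr215. The runs also hold Olfr genes outside the 32. In the order given, the table lists 8, 26, 2, 28 and 5 Olfr genes in them. Counts and ends of runs below are those of the 32. The table's synonyms gave each receptor a family, 10 families in all from MOR103 to MOR267, which are class II receptors, the class that is specific to land vertebrates.

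Most of these receptors were lower in the knockout-labelled arrays, but few passed the test and several did not follow. Of the 32, 24 had a negative and 8 a positive difference (23 negative with quantile normalization repeated), while 61.6% of all clusters were negative. The receptors' median was -0.50 and their range from -1.64 to 0.56, against a median of -0.04 over all clusters. The receptors' median was -0.28 without wildtype replicate 3 and -0.20 over the 14 receptors with a mean above the 25th percentile of clusters. Olfr1413, Olfr430 and Olfr459 fell and none rose (limma over all clusters, adjusted p at or under 0.05), against 1.90% of all clusters that were called lower and 0.144% that were called higher. At an unadjusted p under 0.05 the counts were 13 lower and 0 higher, against 8.33% and 1.81% of all clusters. All 3 knockout arrays lay below all 3 wildtype arrays for 10 of the 32, against 12.0% of all clusters, and above them for 0, against 3.51%.

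**Figure D1:**
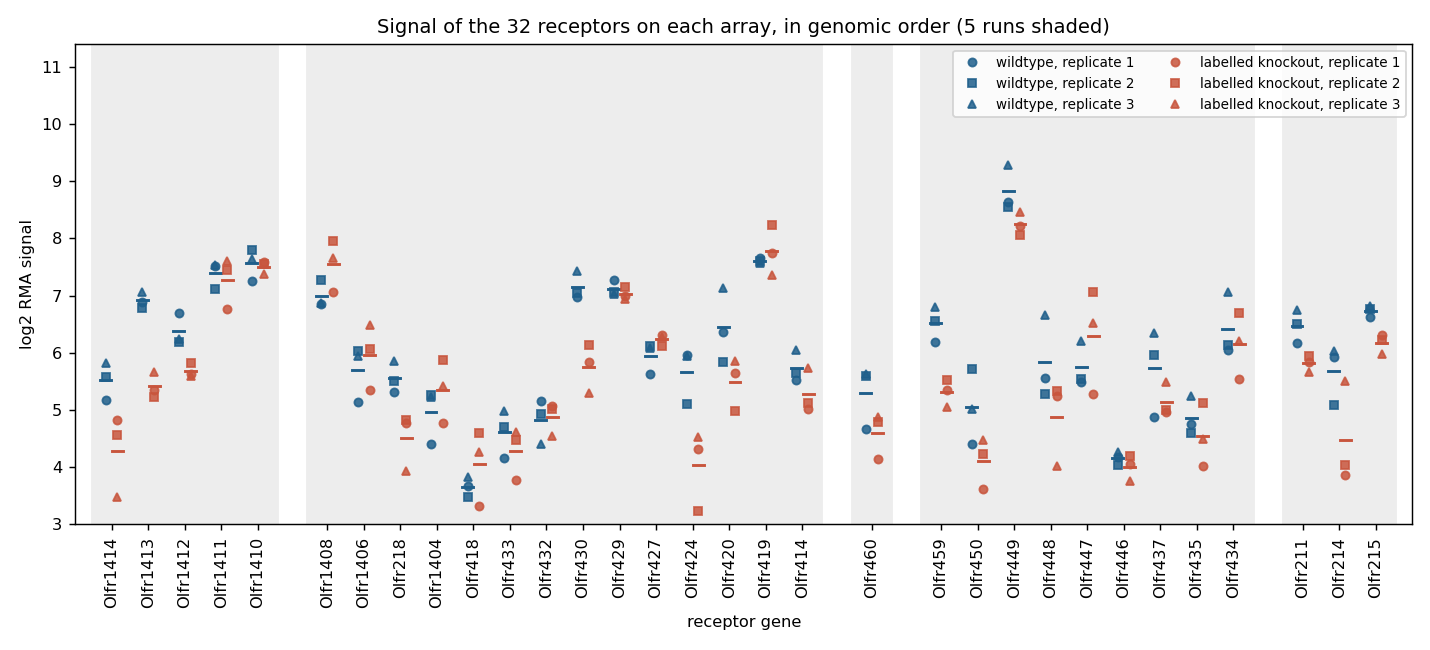
Log2 RMA signal of each of the 32 receptors on the 6 arrays, in genomic order, with wildtype in blue and the arrays labelled knockout in red. Symbols mark the replicate, short bars the mean of 3 arrays, and shading the 5 runs. The groups stand clear of each other for Olfr1413 (6.79 to 7.07 against 5.22 to 5.66) and overlap for Olfr1411 and Olfr1410.

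Set beside the other 680 single-gene odorant receptors, the chromosome 1 and 6 receptors had fewer large falls. The other receptors had a median of -0.67, and 87.4% of them were negative, against 75% here. Called falls made up 27.1% of the other receptors and 9.38% of these, and knockout arrays all below wildtype arrays 55.9% and 31.3%. Differences of -1 or below were measured for 7 of the 32 (21.9%) and for 35.6% of the other receptors, against 2.02% of all clusters. No test was run of the difference between the sets. The sets also differ in level, with a median of the mean signals of 5.87 in these receptors and 4.85 in the others. A mean above the 25th percentile of clusters was reached by 14 of the 32 and by 131 of the 680. The part of signal level in the difference was not tested. The spread between arrays is measured too. The median SD of the knockout arrays was 0.44 in these receptors and 0.27 in the others, and that of the wildtype arrays 0.32 and 0.31.

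**Figure D2:**
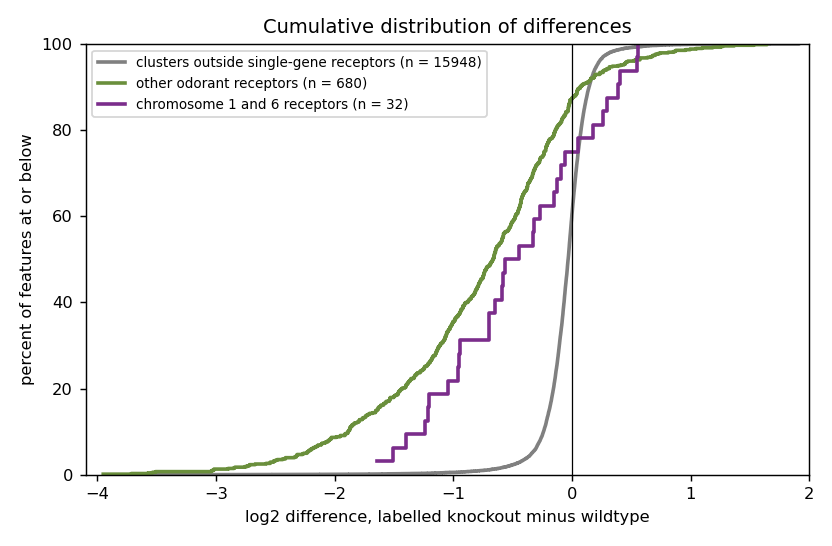
Cumulative share of features (percent, vertical axis) at or below each log2 difference (horizontal axis) for the 32 chromosome 1 and 6 receptors, the 680 other odorant receptors and the 15948 clusters outside the single-gene receptors. The purple curve of the 32 receptors begins at -1.64, lies between the other curves from there to 0, crosses 0 at 75% and ends at 0.56.

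Olfr1413, of family MOR208, had the smallest p of the 32. Its signal was 6.89, 6.79 and 7.07 in wildtype and 5.35, 5.22 and 5.66 in the knockout-labelled arrays. Every knockout array lay more than 1 log2 unit below every wildtype array. The difference was -1.50 (SE 0.14; limma, adjusted p = 0.00502), or 2.84-fold lower. It was -1.63 in the low-Y and -1.35 in the high-Y arrays, and limma called it whichever of the 6 arrays was left out (adjusted p at most 0.0264).

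Olfr430, of family MOR105, was at 6.98, 7.04 and 7.42 in wildtype and at 5.83, 6.13 and 5.30 in the knockout-labelled arrays. The groups were apart, and knockout replicate 3 was the lowest. The difference was -1.40 (SE 0.23; limma, adjusted p = 0.0313), 2.63-fold lower, and -1.37 and -1.33 within the low-Y and high-Y arrays. Leaving out single arrays ended the call in 5 of 6 fits by limma, with an adjusted p of up to 0.111 without knockout replicate 1, and kept it without knockout replicate 2 (adjusted p = 0.0331).

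Olfr459, of family MOR120, was at 6.19, 6.55 and 6.80 in wildtype and at 5.34, 5.52 and 5.06 in the knockout-labelled arrays. The groups were apart. The difference was -1.21 (SE 0.18; limma, adjusted p = 0.0257), 2.31-fold lower, and -1.15 and -1.26 within the low-Y and high-Y arrays. Here too 5 of 6 fits with an array left out lost the call by limma, with an adjusted p of up to 0.102 without knockout replicate 1, and the one without wildtype replicate 1 kept it (adjusted p = 0.0280). With the Y-linked mean as a covariate neither Olfr430 nor Olfr459 was called (limma, adjusted p = 0.0872 and 0.0803).

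Sequences upstream of the annotated starts were read from RefSeq for 29 of the 32 genes (GRCm38.p6). In 19 of the 29 the annotated start is an ATG, so that the window ends at the start codon and not at a known promoter. In the 250 bases before the start, the letters TAATTA occurred in 3 of 29 windows (10.3%), against 18.4% of 915 windows of other odorant receptors and 4.84% of all 32851 windows. TAATNA on either strand, which includes TAATTA, occurred in 14 of 29 (48.3%), against 64.5% and 24.3%, and a palindromic form of the Ebf site in 0, against 0.437% and 0.779%. The windows of the receptors that fell and of the 3 that hold TAATTA are shown, since they are the ones a reader would set beside the differences above. They lie at chr1:92572875-92573124, chr1:174069050-174069299 and chr1:174041683-174041932, all on the plus strand, and at chr6:41772298-41772547 and chr6:116582945-116583194, both on the minus strand. Each reads 5′ to 3′ along its gene, with capitals on every match of TAATNA.
Olfr1413: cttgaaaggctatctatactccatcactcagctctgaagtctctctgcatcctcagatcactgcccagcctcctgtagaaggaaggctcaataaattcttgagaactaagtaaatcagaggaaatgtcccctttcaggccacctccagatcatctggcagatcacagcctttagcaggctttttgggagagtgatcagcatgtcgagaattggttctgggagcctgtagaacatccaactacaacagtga
Olfr430: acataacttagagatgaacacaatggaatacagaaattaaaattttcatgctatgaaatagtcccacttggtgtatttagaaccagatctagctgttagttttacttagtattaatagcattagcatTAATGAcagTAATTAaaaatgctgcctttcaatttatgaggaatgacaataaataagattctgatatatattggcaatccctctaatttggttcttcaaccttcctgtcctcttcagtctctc
Olfr433: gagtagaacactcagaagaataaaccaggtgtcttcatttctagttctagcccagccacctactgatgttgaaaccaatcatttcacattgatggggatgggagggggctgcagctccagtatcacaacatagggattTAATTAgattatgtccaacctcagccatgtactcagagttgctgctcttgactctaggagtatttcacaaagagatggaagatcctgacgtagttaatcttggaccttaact
Olfr459: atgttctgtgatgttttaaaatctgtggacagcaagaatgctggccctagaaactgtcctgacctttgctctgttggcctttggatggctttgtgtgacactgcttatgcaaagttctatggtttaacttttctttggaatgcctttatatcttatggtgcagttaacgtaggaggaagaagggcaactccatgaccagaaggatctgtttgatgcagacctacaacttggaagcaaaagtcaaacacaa
Olfr215: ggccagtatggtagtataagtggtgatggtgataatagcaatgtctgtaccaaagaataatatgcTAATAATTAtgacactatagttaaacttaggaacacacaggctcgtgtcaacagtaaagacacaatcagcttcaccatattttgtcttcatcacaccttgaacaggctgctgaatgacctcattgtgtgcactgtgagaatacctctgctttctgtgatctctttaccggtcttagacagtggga

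In Olfr430, TAATTA began 114 bases before the start and TAATGA 123 bases before it, and in Olfr433 of the same run TAATTA began 112 bases before the start. In Olfr215 it began 182 bases before the start. Olfr430 fell, while Olfr433 was at -0.33 (limma, adjusted p = 0.810) and Olfr215 at -0.56 (adjusted p = 0.0677). The windows of Olfr1413 and Olfr459, which fell, held no match. The annotated start is an ATG in Olfr430, Olfr459 and Olfr215 but not in Olfr1413 and Olfr433, so these windows end at unlike kinds of start. A match describes letters in a window and is no measured site.

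The 5 receptors from Olfr1414 to Olfr1410 were all negative, with a median of -0.70 and 1 called fall. Their order along the chromosome runs from larger to smaller differences after the second gene. Olfr1414 was at -1.24 (limma, adjusted p = 0.222), from 5.18, 5.57 and 5.82 in wildtype to 4.82, 4.56 and 3.48. Its groups were apart, but knockout replicate 3 lay more than 1 log2 unit below knockout replicate 2. Olfr1412 was at -0.70 (adjusted p = 0.0905), from 6.19 to 6.70 in wildtype down to 5.59 to 5.82, also apart.

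The last pair of these receptors overlapped between genotypes. Olfr1411 was at 7.52, 7.12 and 7.54 in wildtype and 6.77, 7.45 and 7.60 in the knockout-labelled arrays, a difference of -0.12 (SE 0.23). It was -0.77 in the low-Y and 0.40 in the high-Y arrays. Olfr1410 was at -0.06 (SE 0.15), with wildtype arrays from 7.25 to 7.80 and knockout arrays from 7.37 to 7.58. Olfr1413, Olfr1412, Olfr1411 and Olfr1410 belong to the same family, MOR208, and their differences ran from -1.50 to -0.06. The mean of the run was 6.75 ± 0.09 (SD, n = 3) for wildtype arrays against 6.03 ± 0.09 (SD, n = 3) for those labelled knockout, with all 3 arrays of each genotype apart.

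**Figure D3:**
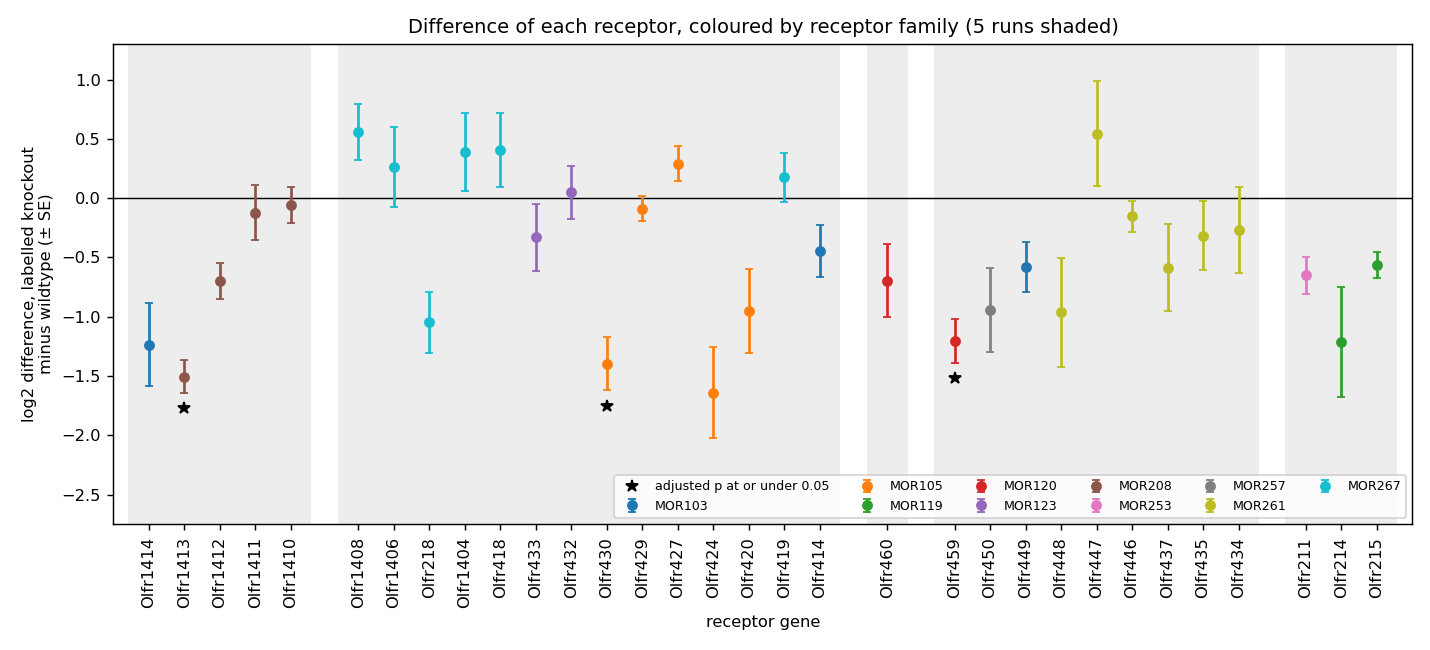
Log2 difference of each receptor (points, with SE), knockout-labelled minus wildtype, in genomic order and coloured by MOR family, with stars on the 3 receptors past an adjusted p of 0.05. In the second shaded run, 5 of the 6 MOR267 receptors lie above 0, and MOR105 spans from -1.64 to 0.29.

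The long run on chromosome 1, from Olfr1408 to Olfr414, was split, with 7 of 14 receptors negative and 7 positive and 1 called fall, that of Olfr430. Its median was -0.02, and turned to 0.01 with each array centred on its median and to 0.09 with quantile normalization repeated. It was -0.14 without wildtype replicate 3 (8 of 14 negative), -0.10 without knockout replicate 2 (9 of 14 negative) and -0.06 without knockout replicate 1 (8 of 14 negative). The run's mean was 5.86 ± 0.15 (SD, n = 3) for wildtype arrays against 5.59 ± 0.14 (SD, n = 3) for those labelled knockout, with the genotypes apart and a difference of -0.27.

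Family MOR267 held 6 of these receptors, 5 of them positive and none past the test (limma). Olfr1408 had the most positive difference of all 32. It was at 6.85, 7.27 and 6.87 in wildtype and at 7.06, 7.95 and 7.66 in the knockout-labelled arrays, so that knockout replicate 1 lay within the wildtype range. The difference was 0.56 (SE 0.24; limma, adjusted p = 0.500), 1.47-fold higher, and 0.36 without knockout replicate 2. Olfr418 was at 0.41 (SE 0.31), with 3.67, 3.48 and 3.82 in wildtype and 3.33, 4.60 and 4.26 in the knockout-labelled arrays. Knockout replicate 1 was again the low one, and the difference was 0.77 without it and 0.14 without knockout replicate 2. Olfr1404 was at 0.39, Olfr1406 at 0.26 and Olfr419 at 0.18, all with overlapping groups, though Olfr1406 turned to -0.02 without wildtype replicate 1 and Olfr419 to -0.05 without knockout replicate 2. Olfr1404 was lower when wildtype replicate 1 (0.11) or knockout replicate 2 (0.13) was left out, and at 0.68 without knockout replicate 1. The sixth, Olfr218, lies between Olfr1406 and Olfr1404 in the table and was negative, from 5.31, 5.51 and 5.85 to 4.76, 4.83 and 3.94. Its groups were apart, at -1.05 (SE 0.26; limma, adjusted p = 0.144).

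The mean over the MOR267 receptors was 5.75 ± 0.21 (SD, n = 3) for wildtype arrays against 5.87 ± 0.38 (SD, n = 3) for those labelled knockout, so the groups overlapped. The mean differed by -0.19 in the low-Y arrays and by 0.20 in the high-Y arrays, and with the Y-linked mean as a covariate the family's median was 0.19. Without a covariate the median of 0.33 was 0.63 without knockout replicate 1, 0.16 without wildtype replicate 1 and 0.13 without knockout replicate 2.

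Family MOR105, whose 5 receptors sit in the same run, had a median of -0.95, which was -0.61 without wildtype replicate 3. Olfr424 had the most negative difference of all 32, at -1.64 (SE 0.38; limma, adjusted p = 0.114), 3.12-fold lower. It was at 5.95, 5.10 and 5.95 in wildtype and 4.32, 3.24 and 4.53 in the knockout-labelled arrays. The groups were apart, but replicate 2 was the low array in both. Olfr420 was at -0.95 (adjusted p = 0.410), with 5.85 to 7.13 in wildtype and 4.98 to 5.86 in the knockout-labelled arrays, overlapping where knockout replicate 3 met wildtype replicate 2. The MOR105 neighbours of Olfr430 stayed near 0 or above. Olfr429 was at -0.09 (SE 0.11), with all 6 arrays between 6.94 and 7.27, and Olfr427 was at 0.29 (SE 0.15), from 5.63, 6.12 and 6.08 to 6.31, 6.12 and 6.28, and at 0.14 without wildtype replicate 1. The difference between Olfr430 and its neighbours was not tested.

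The remaining ones of the 14 receptors in the long run were Olfr433 and Olfr432 of MOR123 and Olfr414 of MOR103. Olfr432 was at 0.05, with 4.40 to 5.15 in wildtype and 4.54 to 5.08 in the knockout-labelled arrays. Olfr414, the last of the 14 along the chromosome, was at -0.45 (adjusted p = 0.600). The MOR103 family was spread over 3 runs, with Olfr1414 at -1.24, Olfr449 at -0.58 and Olfr414 at -0.45, all negative and none past the test.

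On chromosome 6, 12 of 13 receptors were negative (all but Olfr447, and also Olfr446 with quantile normalization repeated), with a median of -0.59, and Olfr459 fell. In the run from Olfr459 to Olfr434, 8 of 9 were negative, with a median of -0.58 that was -0.28 without wildtype replicate 3. The run's mean overlapped between genotypes, at 5.57, 5.82 and 6.32 in wildtype and 5.14, 5.69 and 5.39 in the knockout-labelled arrays. Olfr449 was at 8.64, 8.56 and 9.29 in wildtype and 8.22, 8.05 and 8.47 in the knockout-labelled arrays. The groups were apart at -0.58 (SE 0.21; limma, adjusted p = 0.392). Olfr450 was at -0.95 (adjusted p = 0.417), from 4.41 to 5.71 in wildtype to 3.61 to 4.48, and was called with the Y-linked mean as a covariate (-1.24; limma, adjusted p = 0.0486).

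The rest of the 9 receptors were of family MOR261, with 5 of 6 negative, a median of -0.29 and no call. The median was -0.12 without wildtype replicate 3 or without knockout replicate 1, with 4 of 6 negative in each case, and -0.53 without knockout replicate 2. Olfr447 was the exception, at 5.49, 5.54 and 6.21 in wildtype and 5.28, 7.07 and 6.52 in the knockout-labelled arrays. Knockout replicate 1 lay below every wildtype array, and the other knockout arrays above them. The difference of 0.54 had an SE of 0.45, and was -0.57 in the low-Y arrays and 1.25 in the high-Y arrays. Olfr448, next to it, was at -0.96 (SE 0.46), with wildtype replicate 3 high at 6.66 and knockout replicate 3 low at 4.02. Olfr437 was at -0.59, Olfr435 at -0.32, Olfr434 at -0.27 and Olfr446 at -0.15, with overlapping groups, and the second cluster of Olfr446 was at -0.36. Olfr434 turned to 0.05 without wildtype replicate 3. The family's mean differed by -0.71 in the low-Y arrays and by 0.07 in the high-Y arrays.

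Olfr460 shares family MOR120 with Olfr459 but lies in another run. It was at -0.70 (SE 0.31; limma, adjusted p = 0.527), from 4.67, 5.60 and 5.63 to 4.13, 4.79 and 4.88, so that wildtype replicate 1 lay within the knockout range.

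The 3 receptors from Olfr211 to Olfr215 were all negative, and none passed. Olfr215 was at 6.63, 6.76 and 6.81 in wildtype and 6.32, 6.22 and 5.98 in the knockout-labelled arrays. The groups were apart at -0.56 (SE 0.11; limma, adjusted p = 0.0677). Olfr211 was apart too, at -0.65 (adjusted p = 0.130), with 6.17 to 6.74 against 5.67 to 5.95. Olfr214, of the same family MOR119 as Olfr215, was at 5.92, 5.08 and 6.03 in wildtype and 3.86, 4.04 and 5.50 in the knockout-labelled arrays. Knockout replicate 3 reached into the wildtype range, and the difference was -1.21 (SE 0.46; adjusted p = 0.428). The run's mean was 6.29 ± 0.21 (SD, n = 3) for wildtype arrays against 5.49 ± 0.20 (SD, n = 3) for those labelled knockout, with the genotypes apart. Of the 10 clusters in these ranges that name several genes, 8 were negative and 2 fell (limma), against 61.6% and 1.90% of all clusters. The one naming Olfr212 and Olfr213 was at -1.56 (limma, adjusted p = 0.00996). The one naming Olfr456, Olfr457 and Olfr458 was at -2.11 (limma, adjusted p = 0.0279), while another naming Olfr457 and Olfr458 was at 0.15 (adjusted p = 0.950). A cluster at -0.07 also names Ndufa10, which is no receptor gene.

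Genes next to the receptor runs were measured on the same arrays. For each run the 3 nearest measured genes outside the receptor families on each side gave 30 genes, with 19 negative, 11 positive and a median of -0.02. None fell and 1 rose (limma), against 1.90% and 0.144% of all clusters. At an unadjusted p under 0.05 the counts were 2 lower and 2 higher, against 8.33% and 1.81% of all clusters. The higher ones were Rgs7 and Rassf4, which follows Olfr215 and was at 0.32 (limma, adjusted p = 0.337). The gene that rose is Rgs7, which encodes a regulator of G protein signalling and follows the long chromosome 1 run. It was at 6.41, 6.49 and 6.23 in wildtype and 7.36, 7.39 and 7.38 in the knockout-labelled arrays, a difference of 1.00 (SE 0.09; limma, adjusted p = 0.00526). Tas2r138, which encodes a bitter taste receptor and follows Olfr460, had the lowest difference of the 30, -0.58 (adjusted p = 0.248).

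**Figure D4:**
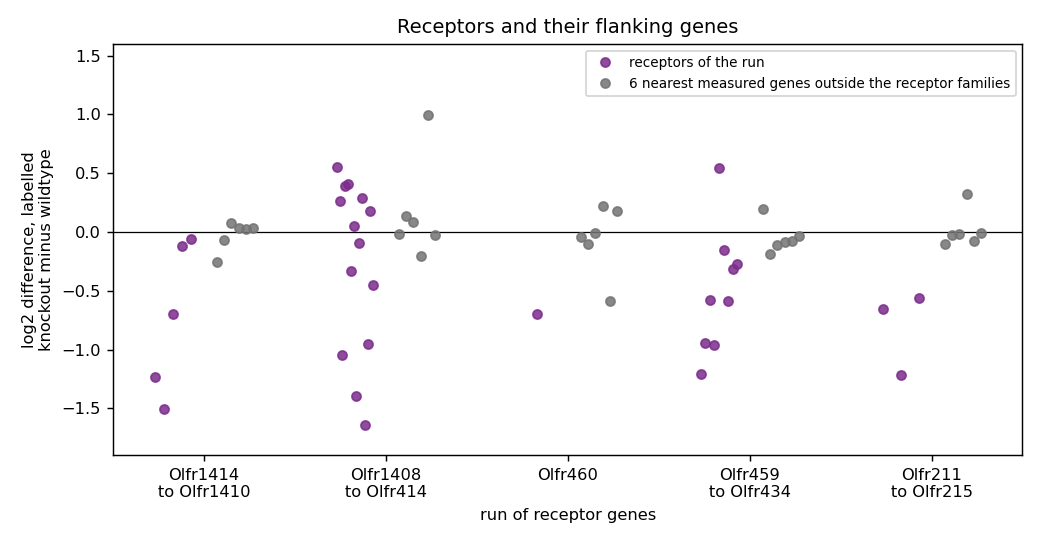
Log2 difference, knockout-labelled minus wildtype, of the receptors of each run (purple) and of the 6 nearest measured genes outside the receptor families (grey). The flanking genes have a median of -0.02, with Rgs7 at 1.00 beside the second run, while the receptors spread from -1.64 to 0.56.

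The mean over all 32 receptors was 5.85, 5.98 and 6.27 in wildtype and 5.39, 5.70 and 5.60 in the knockout-labelled arrays. All knockout arrays lay below all wildtype arrays, with a difference of -0.33 in the high-Y and -0.67 in the low-Y arrays. The difference of the means was -0.47, against -0.79 for the other receptors. Wildtype replicate 1 was the lowest wildtype array for 18 of the 32, and wildtype replicate 3 the highest for 21. Knockout replicate 1 was the lowest knockout array for 14, and knockout replicate 2 the highest for 15.

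Mature olfactory neurons make the receptor RNA, and most of their markers were lower too. Of 15 measured markers 13 were negative and 4 fell (limma), against 61.6% and 1.90% of all clusters. At an unadjusted p under 0.05, 11 were lower, against 8.33% of all clusters. The median of the markers was -0.69, and their mean level ran from 9.24 to 9.62 in wildtype and from 8.69 to 8.93 in the knockout-labelled arrays. S100a5, which encodes a protein that binds calcium, Ano2, the chloride channel of transduction, and Rtp2, a chaperone of receptor transport, were among those that fell, at -2.29, -1.21 and -1.09. With the marker mean of each array subtracted from the receptors, their median turned to 0.19, 12 of 32 were negative, and limma called 0 of them. The marker mean differed by -0.69, so the subtraction raised every receptor's difference by the same amount. The turned median and signs follow from that construction. Olfr1413 was then at -0.81 (limma, adjusted p = 0.0802), Olfr430 at -0.70 and Olfr459 at -0.51. Of 15 listed markers of mesenchyme, cartilage and bone 12 were measured and all were positive, with a median of 0.36 and none past the test (limma). At an unadjusted p under 0.05, 7 were higher, against 1.81% of all clusters. Their mean was 9.03 to 9.18 in wildtype and 9.37 to 9.56 in the knockout-labelled arrays, and no marker was at 0. Of 8 measured markers of immature olfactory neurons all were negative with a median of -0.30, and 2 fell, Gap43, a growth cone protein, and Trib3 (limma). At an unadjusted p under 0.05, 6 of these 8 were lower. Their mean was 10.44 to 10.52 in wildtype and 10.10 to 10.18 in the knockout-labelled arrays. Sustentacular cells, which support the neurons, had 7 of 7 measured markers positive with a median of 0.20 and none past the test (limma; 2 at an unadjusted p under 0.05), at a mean of 9.69 to 9.85 in wildtype and 9.87 to 10.12 in the knockout-labelled arrays. Of the other lists, all 5 measured skeletal muscle markers (median 0.53) and all 4 macrophage markers (median 0.13) were positive. None of them passed the test (limma). Of 8 olfactory bulb and brain markers 7 were negative (median -0.19), but Gad2 rose (0.98). Of 8 progenitor markers 4 were negative, and Nhlh1 fell (-0.55). Horizontal basal cell and respiratory markers had medians of -0.05 and 0.02. The part of any of these marker lists in the receptor differences was not tested.

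**Figure D5:**
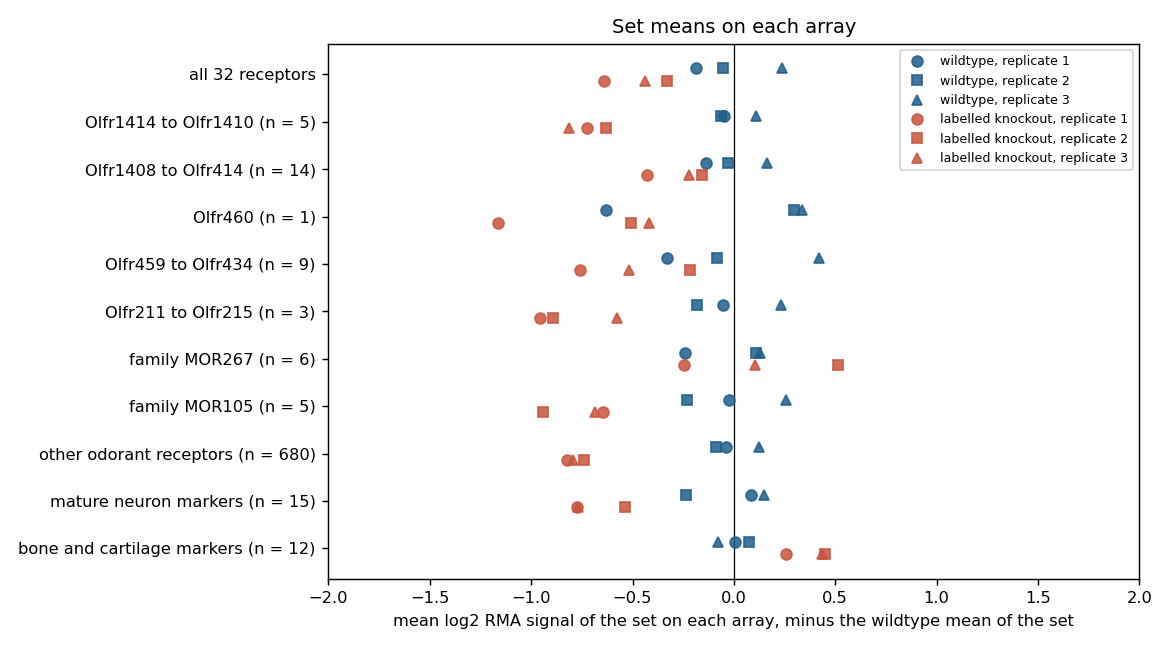
Mean log2 RMA signal of each set on each array minus the wildtype mean of that set, with wildtype in blue, the arrays labelled knockout in red and symbols for replicates. The genotypes are apart for all 32 receptors, for the other receptors and for mature neuron markers, overlap for family MOR267, for Olfr460 and for the run from Olfr459 to Olfr434, and bone and cartilage markers lie to the right in the knockout-labelled arrays.

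Genes that act in receptor choice, receptor transport and transduction were set beside the receptors. Of 29 measured, Ano2 and Rtp2 fell and none rose (limma), with 21 negative and a median of -0.08. At an unadjusted p under 0.05 the counts were 11 lower and 1 higher, against 8.33% and 1.81% of all clusters. Ano2, Rtp2, Rtp1 and Adcy3, among others, were also counted with the mature neuron markers, so the 2 lists are not independent. Lhx2, a LIM homeodomain factor required for most class II receptors, was at -0.02 (SE 0.07), and its cofactor Ldb1 at 0.04 (SE 0.09). Ebf1, Ebf2 and Ebf3, which bind receptor promoters, lay between -0.11 and -0.03, and Ebf4 was at -0.35 (limma, adjusted p = 0.260). Rtp1, a second transporter of receptors to the surface, was at -0.83 (adjusted p = 0.0610). Adcy3, the adenylyl cyclase of the cilium, was at -0.48 (adjusted p = 0.211), and Atf5, a factor of the receptor feedback signal, at -0.37 (adjusted p = 0.360). Kdm1a, the demethylase used at the start of receptor choice, was at -0.02.

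How far low signal limits these sizes can be given only in part, since the sources used here give no background signal. Only 14 of the 32 receptors had a mean over 5.99, the 25th percentile over clusters, as did 131 of the 680 other receptors. With values under 4 set to 4 before the fit, Olfr1413 alone was called. Olfr430 and Olfr459 have no value under 4 and kept their differences of -1.40 and -1.21. In that fit 97 of all 16661 clusters were called lower, against 316 in the main fit. Near-identical receptors may also cross-hybridise, so single receptors within a family are uncertain.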

How the data were processed

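Olfactory epithelium of ED18.5 embryos was profiled on 6 exon arrays, 3 per genotype, each with RNA of 3 animals. The deposited values are log2 signals which, per the submitters' processing notes, the authors made by RMA with Affymetrix Expression Console. RMA corrects background and equalises distributions between arrays, so a general shift would be hidden. The sources used here give no version or build.

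Of 23238 probe sets, 16661 in the annotated numbering range were tested. Annotation gave 1 gene for 14945, several for 983 and none for 733. R 4.3.3 and limma 3.58.1 gave the differences (lmFit, eBayes, two-sided, Benjamini-Hochberg over all clusters, threshold 0.05), checked first on simulated data. A GRCm38.p6 gene table gave names and neighbours, and runs replaced preset number ranges that did not match the chromosome. Protein identity was not computed. No 2 arrays shared more than 9 values, and their correlations were 0.975 to 0.991. Alternatives were other scalings, filters, moderation, weights, covariates and each array left out. Members and lists were chosen with earlier results of these data known. Called members are all named, with the 3 extremes of each run in each direction and the brightest 5. Outside them the named genes are called or defining list members and flanking genes. Correlations of deviations between same-numbered arrays lay within the range of the other pairs, which cannot decide whether the numbers pair the pools. Figures used matplotlib 3.10.9.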

Additional observations from a re-analysis of the deposited data

How the results depend on the processing

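The count of 3 falls was 1 with all probe sets kept in the fit, 1 with values under 4 set to 4, 0 after subtraction of the mature neuron marker mean, and 1 to 2 with 1 array left out (1 without wildtype replicate 2 or 3 or knockout replicate 1 or 3). It was 10 by unadjusted p with groups apart, and 2 or 3 under the others. Of all clusters 12.0% were lower with groups apart and 8.33% lower at an unadjusted p under 0.05. The share with both was not computed. Clusters called lower were 1.90% in the main fit, 0.62% with all probe sets and 0.58% with values under 4 set to 4. They were 1.85% after marker subtraction, which changed the receptors only, and 0.87% to 1.34% with 1 array left out. No receptor rose under any alternative run, limma with 0 calls in each. Olfr1413 was called under all of them but the marker subtraction. The median of -0.50 was -0.20 over the 14 receptors above the 25th percentile, a filter on a mean that the change itself moves, from -0.56 to -0.28 with 1 array left out (-0.28 without wildtype replicate 3), and 0.19 after marker subtraction. That subtraction also turned Olfr1411 to 0.57, Olfr1410 to 0.63, Olfr433 to 0.36, Olfr429 to 0.60, Olfr414 to 0.25, Olfr449 to 0.11, Olfr446 to 0.54, Olfr437 to 0.11, Olfr435 to 0.38, Olfr434 to 0.42, Olfr211 to 0.041 and Olfr215 to 0.13, by its own construction. Repeated quantile normalization turned Olfr446 to 0.065. With 1 array left out, ranges that crossed 0 were -0.020 to 0.57 for Olfr1406, -0.22 to 0.059 for Olfr1410, -0.29 to 0.13 for Olfr1411, -0.053 to 0.39 for Olfr419, -0.17 to 0.22 for Olfr432, -0.54 to 0.053 for Olfr434 and -0.11 to 0.0027 for Emx2. None of these genes was called, and the cause was not tested. The replicate block gave 2 falls, Olfr1413 (limma, adjusted p = 0.0130) and Olfr424 (0.0172), with Olfr430 at 0.129 and Olfr459 at 0.0964. Correlations of deviations between same-numbered arrays were 0.007, 0.049 and -0.167, and those between unlike-numbered arrays ran from -0.214 to 0.216. With 3 arrays per group they cannot decide whether the numbers pair the pools. The sources used here give no signal over background, so small falls of dim receptors are the least certain.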
